A study of Mus musculus with 2 samples.

Results

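The genes described are 10 mouse lysine deacetylase genes: the class I enzymes Hdac1, Hdac2 and Hdac3, the class IIa enzymes Hdac4, Hdac5 and Hdac7, the class IV enzyme Hdac11, and Sirt1, Sirt2 and Sirt6 of class III, the sirtuins. They were chosen by name and are 10 of 21887 protein-coding genes of the annotation. All KAT8 peaks from 10 kb before to 10 kb after each gene were collected. That window held 24 of 44772 peaks of R848-stimulated macrophages and 18 of 52001 peaks of untreated macrophages.

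KAT8, also called MOF, is a lysine acetyltransferase of the MSL and NSL complexes, and its positions on chromatin were mapped by CUT&Tag, in which an antibody guides a transposase to the bound sites. The cells were wild-type macrophages derived from mouse bone marrow in medium with M-CSF at 20 ng/ml. The R848 group (1 library) received 100 ng/ml R848, an agonist of the endosomal receptor TLR7, for 2 h, and the untreated group (1 library) received none. The sources used here do not state strain, sex, age or the number of animals, and with 1 library a group no difference carries a p-value or a replicate check.

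Lysine acetyltransferases add acetyl groups to histones and other proteins, and deacetylases remove them. The HDAC classes I, II and IV use a zinc ion, whereas sirtuins consume NAD+. Class I enzymes are mainly nuclear and act in corepressor complexes named SIN3, NuRD, CoREST and NCoR. Class IIa enzymes shuttle between nucleus and cytoplasm, bind MEF2 transcription factors and have little catalytic activity of their own. In macrophages, HDAC3 with NCoR and HDAC7 are known regulators of the response to Toll-like receptor ligands, and SIRT1 and SIRT6 are known to deacetylate chromatin and proteins at NF-kB target genes.

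Each peak carries the authors' own fold over background, −log10 p and −log10 q, used here only to describe and rank peaks within a list. Peak names begin with MOF0h in the untreated list and with MOF0h2h in the R848 list, and no source used here states whether reads of the untreated library entered the R848 peak calling, as sample or as control. The R848 folds, backgrounds, pileups and overlaps are therefore those of a list labelled R848, which may not rest on the R848 library alone. The number of fragments that overlap at the summit (the pileup) and the local background were solved from the fold and p. The genome-wide background was 2.62 fragments in the R848 list and 3.37 in the untreated list, a ratio of 0.777. The lowest pileup called was 7 in the R848 list and 8 in the untreated list. The lowest −log10 p was 2.01 in each list, so peaks with a q-value above 0.05 rest on a lenient nominal p. Peaks within each list were weak on the whole, with a median pileup of 10 (R848) and 12 (untreated), and a q-value up to 0.05 was reached by 41.1% (R848) and 36.3% (untreated) of peaks. A KAT8 peak is no measure of expression. Peaks lay within 1000 bp of a start at 5 of 11 macrophage markers in each list. Where no start was given, as for Ctsb, either gene end was used. Cd68, Cebpa, Cebpb and Ctsb were among them in both lists, but the peaks of the lists at Cebpa did not overlap. Csf1r, Adgre1, Itgam, Fcgr1 and Lyz2 had none there in either list. The exact binomial interval of 5 of 11, 16.7% to 76.6%, included the shares of all protein-coding genes, 23.8% (R848) and 28.1% (untreated). That count thus does not set macrophage markers apart from all genes. Of 18 lymphoid, granulocyte, dendritic, stromal, endothelial and epithelial markers, Zap70 alone had such a peak in the R848 list and Siglech alone in the untreated list. These counts are no check of cell identity.

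KAT8 peaks lay at the transcript start of Hdac2, Hdac4, Hdac5, Sirt1 and Sirt2 and at the end of Hdac1 with the higher coordinates in both lists. Hdac11 had a start peak in the R848 list only. Hdac3, Hdac7 and Sirt6 had none within 1000 bp in either list. The start is that given with the RefSeq promoter sequences (build GRCm38.p6, the assembly of mm10), and both gene ends were used for Hdac1 and Hdac3. The counts were thus 7 of 10 genes in the R848 list and 6 of 10 in the untreated list, where 23.8% and 28.1% of all protein-coding genes had such a peak. Both lists had one at 6 members (17.3% of all genes), the R848 list only at 1 (6.47%), the untreated list only at 0 (10.9%) and neither at 3 (65.4%). Over the whole window, 9 of 10 members had a peak in each list, where 58.7% (R848) and 64.0% (untreated) of all genes had one. Sirt6 was the 1 member with no peak in either list, as were 26.1% of all genes. With peaks of q up to 0.05 only, 4 members in the R848 list (14.9% of all genes) and 2 in the untreated list (16.6%) had a start peak, and Hdac1 and Hdac4 had one in both (10.5%). The genes were listed with earlier results of these data known, so the distance of these counts from the background is a description and not evidence about deacetylase genes as a class.

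**Figure D1:**
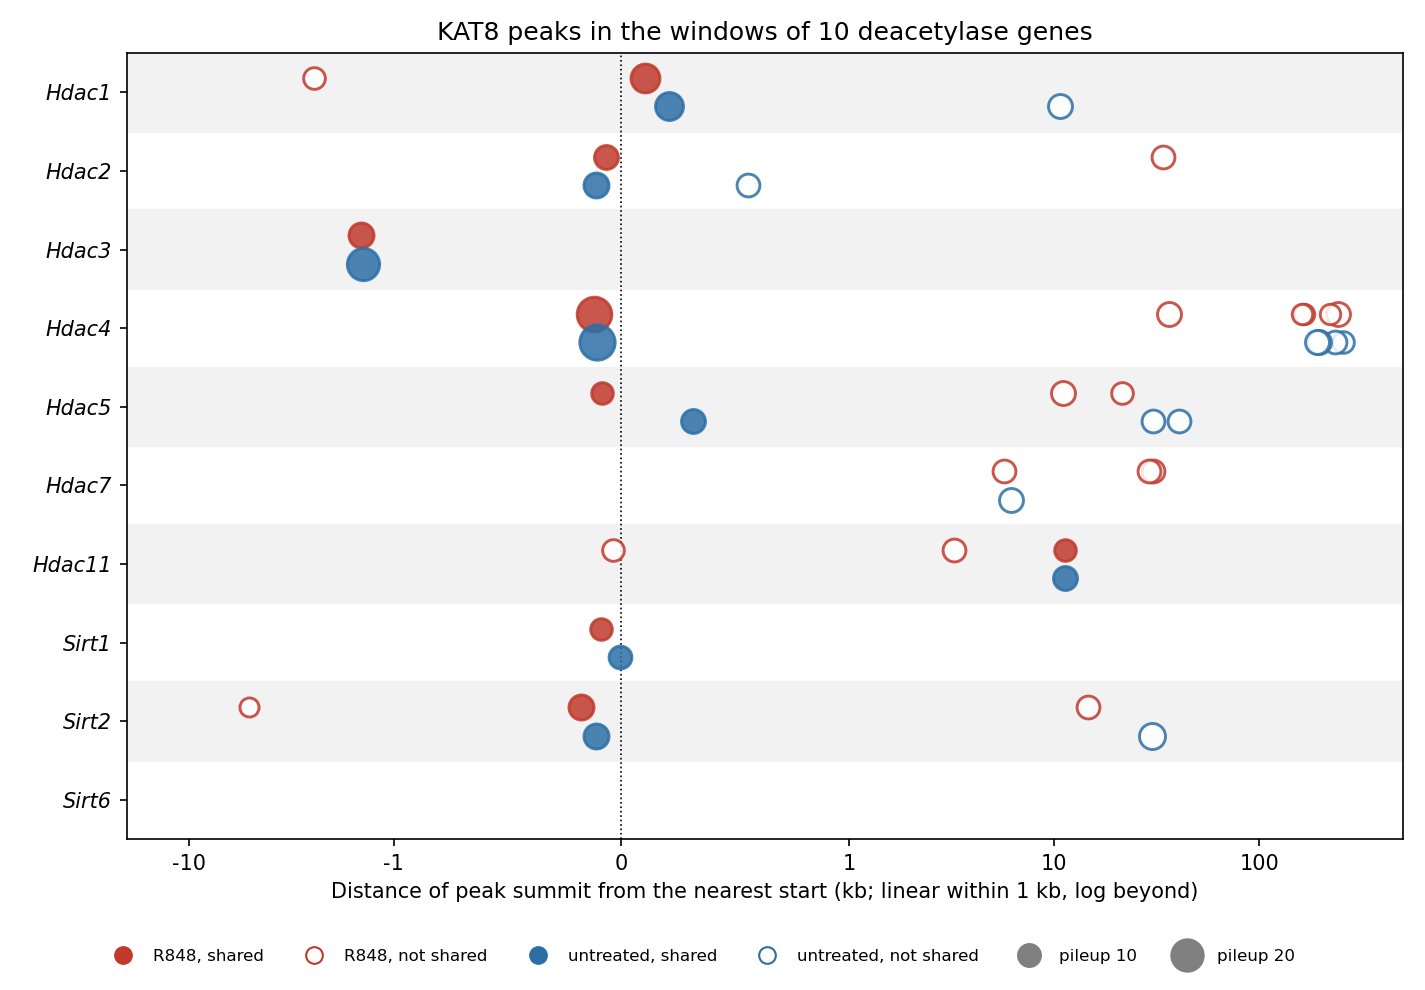
Position of each KAT8 peak summit relative to the nearest transcript start of its gene, in the direction of transcription, in kb (linear within 1 kb of the start, logarithmic beyond); for Hdac1 and Hdac3 the distance is from the nearest gene end, in the direction of rising coordinates. Red circles above are R848 peaks and blue circles below are untreated peaks, filled where they overlap a peak of the other list, with area proportional to the summit pileup; the filled circles gather near the start, except at Hdac3 and Hdac11, and Sirt6 has none.

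Promoters of the members, given for all but Hdac1 and Hdac3, range from ones with a clear peak to CpG-rich ones with none. To show this, 6 of the 12 given for these genes are printed as the 250 bases before the start, 5′ to 3′ in the direction of the gene, from RefSeq (GRCm38.p6). They are the promoter with the strongest peak (Hdac4, chr1:92180342-92180591, minus strand), the most CpG-rich (Sirt1, chr10:63339036-63339285, minus strand), the one shared with Nfkbib (Sirt2, chr7:28766502-28766751, plus strand), the one with an R848 peak only (Hdac11, chr6:91156565-91156814, plus strand), and a CpG-rich and a moderate one with no peak (the second start of Hdac7, chr15:97831768-97832017, and the first of Sirt6, chr10:81627567-81627816, both minus strand). Capitals mark matches on either strand to GGGCGG (SP and KLF factors), CCAAT (NF-Y), CACGTG (E-box), CCGGAAG (ETS factors) and the NRF1 motif (10 letters, in Sirt6), and a run of 10 capitals in Sirt1 is 2 overlapping GGGCGG matches.
Hdac4: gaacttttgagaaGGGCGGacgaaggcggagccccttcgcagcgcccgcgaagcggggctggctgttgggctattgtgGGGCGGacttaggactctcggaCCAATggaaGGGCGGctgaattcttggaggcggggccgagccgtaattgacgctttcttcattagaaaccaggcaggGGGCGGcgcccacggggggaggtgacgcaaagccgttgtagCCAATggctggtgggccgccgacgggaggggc
Sirt1: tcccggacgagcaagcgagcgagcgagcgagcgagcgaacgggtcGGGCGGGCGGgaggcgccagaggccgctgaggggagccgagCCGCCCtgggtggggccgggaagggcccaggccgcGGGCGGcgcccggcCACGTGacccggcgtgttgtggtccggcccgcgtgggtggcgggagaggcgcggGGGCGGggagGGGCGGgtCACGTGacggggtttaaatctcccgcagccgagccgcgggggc
Sirt2: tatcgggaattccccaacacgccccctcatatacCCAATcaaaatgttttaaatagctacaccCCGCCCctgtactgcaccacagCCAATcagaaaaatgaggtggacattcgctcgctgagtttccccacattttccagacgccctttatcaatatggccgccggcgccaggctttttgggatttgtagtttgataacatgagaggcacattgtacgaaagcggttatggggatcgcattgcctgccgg
Hdac11: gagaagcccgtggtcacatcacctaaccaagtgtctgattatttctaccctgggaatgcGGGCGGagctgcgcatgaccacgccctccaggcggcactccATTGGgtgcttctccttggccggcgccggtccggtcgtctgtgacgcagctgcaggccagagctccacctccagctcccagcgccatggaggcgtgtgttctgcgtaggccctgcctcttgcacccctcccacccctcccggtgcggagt
Hdac7, second start: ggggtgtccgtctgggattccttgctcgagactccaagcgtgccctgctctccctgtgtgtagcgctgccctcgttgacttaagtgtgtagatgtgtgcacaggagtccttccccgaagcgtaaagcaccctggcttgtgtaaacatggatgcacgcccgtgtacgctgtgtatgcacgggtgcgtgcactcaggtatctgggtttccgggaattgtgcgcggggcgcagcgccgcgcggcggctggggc
Sirt6, first start: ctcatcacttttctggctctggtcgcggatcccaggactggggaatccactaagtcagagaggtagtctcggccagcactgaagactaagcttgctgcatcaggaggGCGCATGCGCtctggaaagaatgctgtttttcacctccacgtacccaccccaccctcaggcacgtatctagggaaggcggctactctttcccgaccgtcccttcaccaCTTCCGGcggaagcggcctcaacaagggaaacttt

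Hdac4 had the strongest KAT8 peak of the 10 genes in both lists. HDAC4 is a class IIa enzyme known for repressing MEF2 targets. The R848 peak (chromosome 1, 92180289 to 92181163, 875 bp) had a fold of 6.63, a −log10 q of 10.8 and a pileup of 23 fragments (95% exact Poisson interval 14.6 to 34.5). The untreated peak (92180136 to 92180954, 819 bp) had a fold of 5.72, a −log10 q of 9.45 and a pileup of 24 (15.4 to 35.7). By −log10 p they stood at percentiles 97.9 (R848) and 97.3 (untreated) of their lists. Their summits lay 120 bp and 108 bp upstream of the start at 92180341, 12 bp apart. That start is 15361 bp inside the annotated gene, whose higher end is at 92195702, so a search at gene ends alone does not find the peak. All intervals given cover counting error alone, and fragments without molecular identifiers need not be independent molecules.

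Hdac1 and Hdac2 encode closely related class I enzymes that share the SIN3, NuRD and CoREST complexes. At Hdac1 (chromosome 4, 129516104 to 129542646) the R848 peak at 129542506 to 129542919 had a fold of 4.70, a −log10 q of 4.78 and a pileup of 16 (9.15 to 26.0). The untreated peak at 129542752 to 129542985 had a fold of 3.66, a −log10 q of 2.85 and a pileup of 15 (8.40 to 24.7). The summits lay 104 bp (R848) and 211 bp (untreated) beyond the gene's higher end. Hdac1 thus came next to Hdac4 in the R848 list, and after Hdac4 and Hdac3 in the untreated list.

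At Hdac2 (chromosome 10, 36974297 to 37001889, plus strand) the peaks were weaker. The R848 peak (36974309 to 36974633, 325 bp) had a fold of 3.32, a −log10 q of 1.51 and a pileup of 11 (5.49 to 19.7), and lay wholly within the untreated peak (36974026 to 36974770, 745 bp), which had a fold of 2.98, a −log10 q of 1.26 and a pileup of 12 (6.20 to 21.0). The summits were 69 bp and 113 bp upstream of the start at 36974544. A second untreated peak inside Hdac2, with its summit 558 bp downstream of the start, had a fold of 2.52 and began 304 bp from the R848 peak. With a q of 0.05 as the limit, Hdac2 had a start peak in the R848 list only, although the pileups differed by 1 fragment.

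Hdac3 encodes the catalytic subunit of the NCoR corepressor complex. Its window (chromosome 18, gene at 37936971 to 37955015) held 1 peak per list, and that peak was not at the gene. The R848 peak (37935348 to 37935672) had a fold of 3.59, a −log10 q of 2.07 and a pileup of 12 (6.20 to 21.0), and the untreated peak (37935421 to 37935739) had a fold of 4.81, a −log10 q of 6.25 and a pileup of 20 (12.2 to 30.9). Both summits lay inside the neighbouring gene Diaph1, a formin gene of actin assembly, 96 bp and 57 bp from its higher end at 37935622, and 1445 bp and 1406 bp below the lower end of Hdac3. The peak is therefore closer to Diaph1 than to Hdac3. Only the 10 kb window, or a start window widened to 3000 bp, assigns it to Hdac3.

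Hdac5 and Hdac7 are the other class IIa genes among the 10. At the start of Hdac5 (chromosome 11, 102230172, minus strand) the R848 peak (102230214 to 102230413, 200 bp) had a fold of 2.76, a −log10 q of 0.581 and a pileup of 9 (4.12 to 17.1). The untreated peak (102229724 to 102230387, 664 bp) had a fold of 2.75, a −log10 q of 0.831 and a pileup of 11 (5.49 to 19.7). They overlapped by 174 bp, but the summits were 399 bp apart, 85 bp upstream of the start in the R848 list and 314 bp downstream of it in the untreated list. The untreated peak also covered the miRNA gene Mir8101 (102230040 to 102230150), which the R848 peak did not. Neither reached a q of 0.05.

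Hdac7, whose product is known to take part in macrophage inflammatory gene expression, had 4 annotated starts (chromosome 15, minus strand, 97814863 to 97844502) and no peak within 1000 bp of any of them. The R848 list had a peak inside the gene 5721 bp downstream of the nearest start (97825662 to 97825967, fold 3.04, pileup 10). The untreated list had another inside the gene, 6147 bp downstream of the nearest start (97808534 to 97808827, fold 2.67, pileup 11). These were 16835 bp apart. A further pair of R848 peaks lay beyond the gene inside Slc48a1, a haem transporter gene, with a fold of 3.04 each. All 4 peaks had a q-value above 0.05.

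Hdac11, the only class IV enzyme and known as a regulator of Il10 expression, was the 1 member whose start had a peak in a single list. The R848 peak (chromosome 6, 91156693 to 91156892, 200 bp) had its summit 38 bp upstream of the start at 91156815, with a fold of 2.76, a −log10 q of 0.581 and a pileup of 9 (4.12 to 17.1). That is 2 fragments above the lowest pileup called in the list, and the nearest untreated peak was 11106 bp away. Of all R848 peaks with a pileup of 9, 18.3% overlapped an untreated peak. A peak 11252 bp downstream of the start, inside the gene, was found in both lists (91167945 to 91168144, fold 2.60, pileup 9 in the R848 list, and 91167998 to 91168277, fold 2.75, pileup 11 in the untreated list), with summits 16 bp apart. The lists therefore differed at Hdac11 by a weak start peak and by another weak R848 peak 3239 bp downstream of the start (fold 2.62).

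Among the sirtuins, Sirt2 had the stronger start peaks. SIRT2 is mainly cytoplasmic and deacetylates tubulin, and it enters the nucleus in mitosis. The R848 peak (chromosome 7, 28766312 to 28766736, 425 bp) had a fold of 3.59, a −log10 q of 2.07 and a pileup of 12 (6.20 to 21.0). The untreated peak (28766454 to 28766724, 271 bp) had a fold of 2.98, a −log10 q of 1.26 and also a pileup of 12. The summits lay 177 bp and 112 bp upstream of the start of Sirt2 and inside Nfkbib, a gene for an NF-kB inhibitor that runs the other way. The summits were 69 bp (R848) and 4 bp (untreated) from a start of Nfkbib, whose annotated gene ends at 28766644. The peak thus lies at adjoining starts and cannot be given to either gene.

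At Sirt1, which encodes the nuclear NAD+-dependent deacetylase of p53, NF-kB and histones, the start peaks were the weakest of those shared in the untreated list. The R848 peak (chromosome 10, 63339001 to 63339288, 288 bp) had a fold of 2.76, a −log10 q of 0.581 and a pileup of 9 (4.12 to 17.1), and lay wholly within the untreated peak (63338903 to 63339466, 564 bp; fold 2.52, −log10 q 0.462, pileup 10, 4.80 to 18.4). The summits were 91 bp (R848) and 6 bp (untreated) upstream of the start at 63339035. Each list had just this peak in the Sirt1 window. Sirt6 (chromosome 10, 81621787 to 81627792), which encodes a chromatin-bound deacetylase of histone H3, had no peak in its 26006 bp window. Of 8731 protein-coding genes with a window of 20805 to 32501 bp, 36.6% likewise had none in either list.

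Pileups of the 8 overlapping pairs of peaks were compared between the 2 lists without scaling for the background. The R848 pileup divided by the untreated one was 1.07 at Hdac1, 1.00 at Sirt2, 0.958 at Hdac4, 0.917 at Hdac2, 0.900 at Sirt1, 0.818 at Hdac5 and Hdac11, and 0.60 at the peak near Hdac3. Over all 15920 overlapping pairs of the series with solved pileups, the median ratio was 0.846, and 5% of pairs lay below 0.548 and 5% above 1.3. All 8 lay inside that range. The 95% exact interval of the ratio was 0.494 to 2.32 at Hdac1, 0.517 to 1.77 at Hdac4 and 0.267 to 1.29 near Hdac3, and the intervals of all 8 pairs included both 1 and the median of all pairs. Counting error alone thus did not separate the lists at these pairs. Pairs were taken only where both lists had a peak, and untreated reads may have entered the R848 calls. The ratios therefore cannot show whether KAT8 at these peaks was alike in the 2 groups.

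**Figure D2:**
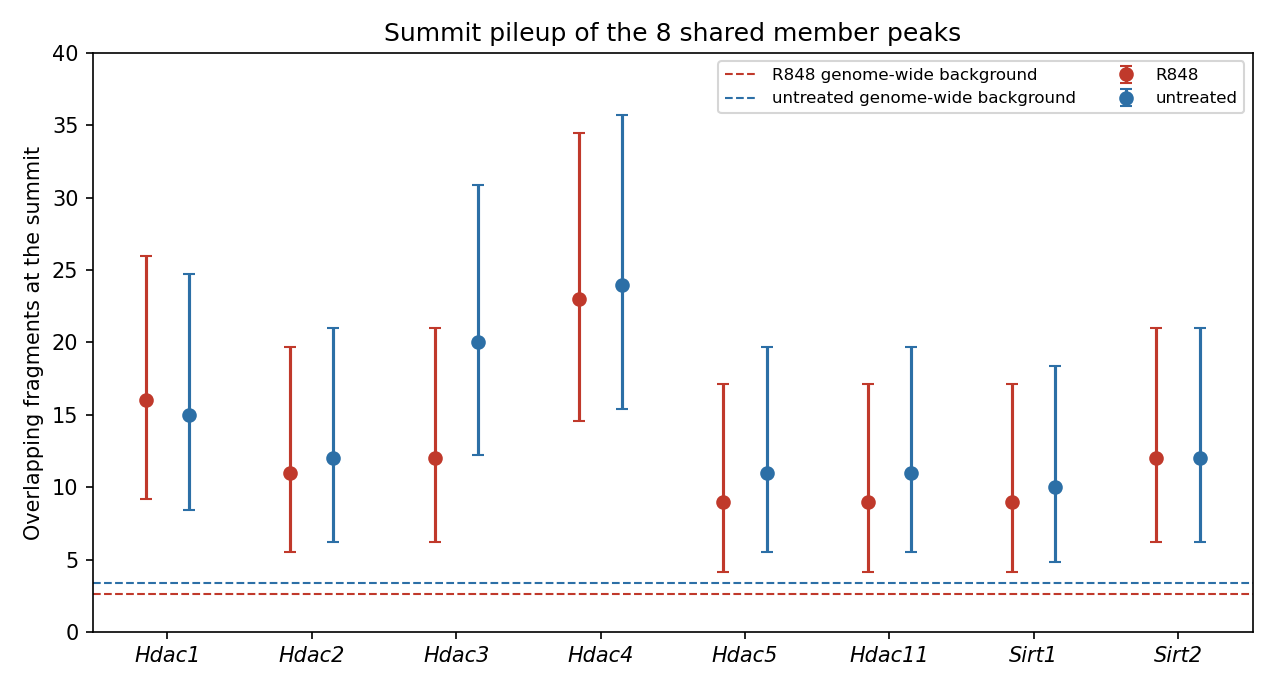
Summit pileup, in overlapping fragments, of the 8 member peaks present in both lists, with R848 (red) left of untreated (blue); bars are 95% exact Poisson intervals for counting error within each list, and dashed lines are the genome-wide backgrounds of 2.62 (R848) and 3.37 (untreated) fragments. The intervals of the lists overlap at every gene, and Hdac4 is highest with 23 and 24 fragments.

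Over the whole table, promoters with a peak held more CpG dinucleotides than those without, whereas the CpG counts of the members with and without a peak overlapped. The promoter sequence (250 bases before to 50 after the start) was given for 8 of the 10 genes, with 4 starts for Hdac7 and 2 for Sirt6. Over all 21263 protein-coding promoters in the RefSeq table, those overlapped by a peak in both lists had a median of 27 CpG dinucleotides and those with no peak a median of 7. CpG counts at the starts with a peak in both lists were 47 at Sirt1, 36 at Hdac2, 32 at Hdac4, 18 at Hdac5 and 16 at Sirt2, and Hdac11, with its R848 peak, had 22. At Sirt6 the starts had 20 and 21, more than Hdac5 or Sirt2, and at Hdac7 they had 6, 35, 31 and 5 in the direction of transcription. Hdac7 therefore had 2 starts nearly as CpG-rich as those of Hdac2 and Hdac4 with no peak in either list, as had 43.1% of all promoters with 30 or more CpGs. Conversely, Sirt1 had the most CpGs and 1 of the weakest start peaks. The part of CpG content in these counts was not tested.

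**Figure D3:**
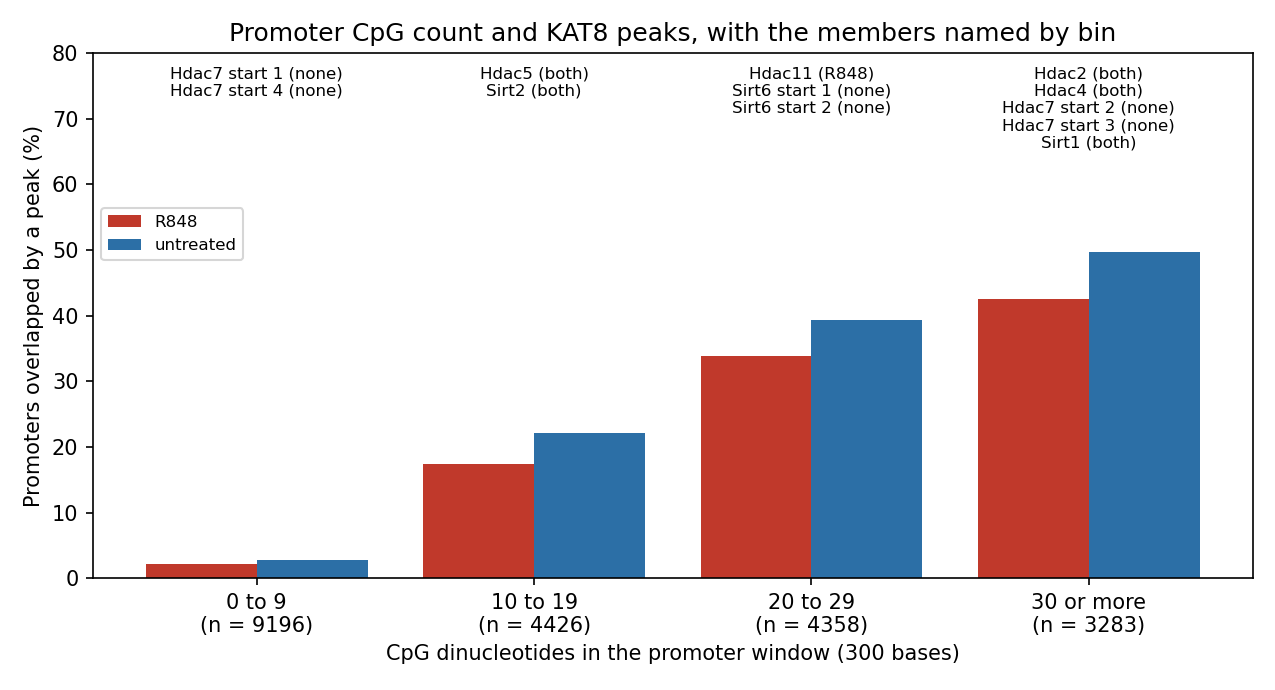
Share of all promoters in the RefSeq table (in %, bars from 0) overlapped by a KAT8 peak in the R848 list (red, left) and the untreated list (blue, right), by number of CpG dinucleotides in the promoter, with the number of promoters under each bin. Member promoters are named above their bin with the lists that have a peak over them; the share is 2.16% (R848) and 2.82% (untreated) in the lowest bin and 42.6% and 49.7% in the highest, where Hdac2, Hdac4 and Sirt1 had a peak in both lists and the second and the third start of Hdac7 had none.

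In the sequences above, and in those of Hdac2 and Hdac5 searched alike, GGGCGG occurred in each promoter with a peak: 7 matches in Sirt1, 5 in Hdac4, and 1 each in Hdac2, Hdac5, Hdac11 and Sirt2. It occurred in 82.2% of all promoters with a peak in both lists, in 35.6% of those with none and in 46.2% of all, and the third start of Hdac7 and the second of Sirt6 also held 1 match each. CCAAT was found in Hdac4, Hdac5, Hdac11 and Sirt2, with 2, 2, 1 and 2 matches, and in none of the promoters of Hdac2 and Sirt1, which have a peak in both lists, or of Hdac7 and Sirt6, which have none. Over the whole table it was in 46.4% of promoters with a peak in both lists, 36.9% of those with none and 38.2% of all. In Hdac4 the CCAAT matches began 150 and 32 bases before the start and the 5 GGGCGG matches 237, 172, 141, 73 and 4 bases before it. The peak summits, at 120 (R848) and 108 (untreated), thus lay among matches spread over the whole promoter. Sirt1 held 2 CACGTG matches and Hdac5 held 1 just after its start (7.84% of all promoters). The NRF1 motif (1.33% of all promoters) and CCGGAAG (11.6%) were found only at the first start of Sirt6, which has no peak. The cAMP-response letters TGACGTCA (2.23% of all promoters) and the NF-kB motif (1.60%) were in none of the 12 promoters, and the AP-1 letters TGANTCA (6.99%) were only at the fourth start of Hdac7. Matches were searched over the whole 300-base promoter, so a few lie past the bases printed.

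Away from the members' own starts the lists shared few member peaks. Of the R848 peaks within 1000 bp of a member's start, 6 of 7 overlapped an untreated peak, and of the other 17 R848 member peaks 2 did, those near Hdac3 and inside Hdac11. In the untreated list the counts were 6 of 7 and 2 of 11. Over all peaks of the series, 65.4% of R848 peaks near a start and 32.1% of those elsewhere overlapped an untreated peak, and 54.7% and 27.9% of untreated peaks overlapped an R848 peak. Those shares count a start of any protein-coding gene, or its ends where no start was given, so they are no like measure for the member counts. By that wider rule the shared pair near Hdac3 lies near a start, at Diaph1. So do unshared peaks at Marcksl1 and Slc48a1 (R848) and at G6pc3 (untreated). In all, 8 of 24 R848 member peaks (33.3%) and 8 of 18 untreated member peaks (44.4%) were shared, against 35.8% and 31.0% of all peaks.

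The 16 unshared R848 peaks had pileups of 7 to 11 and folds of 2.17 to 3.32, and the 10 unshared untreated peaks had pileups of 9 to 13 and folds of 2.17 to 3.20. Shared member peaks had pileups of 9 to 23 (R848) and 10 to 24 (untreated). Of the 16 unshared R848 peaks 2 reached a q of 0.05, both inside class IIa genes: in Hdac4, 36360 bp downstream of its start (92143834 to 92144044, fold 3.32, −log10 q 1.51), and in Hdac5, 11070 bp downstream (102218746 to 102219236, fold 3.12, −log10 q 1.31). Of the 10 unshared untreated peaks 1 did, 8257 bp beyond Sirt2 inside Rinl (28796779 to 28796991, fold 3.20, −log10 q 1.75). Among all R848 peaks with a pileup of 11, 31.9% overlapped an untreated peak, and among all untreated peaks with a pileup of 13, 31.0% overlapped an R848 peak, so unshared peaks of this strength are common throughout both lists. Some lie at other genes: the weak R848 peak near Hdac1 (fold 2.76) was 76 bp from the start of Marcksl1, and an untreated peak near Hdac5 (fold 2.52) was 41 bp from the start of G6pc3. An R848 peak near Hdac7 (fold 3.04) was 34 bp from the lower end of Slc48a1. Another R848 peak, inside Sirt2 (fold 3.04), was 119 bp from the higher end of the long non-coding RNA gene Gm19897.

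Peak densities of the deacetylase classes overlapped within counting error. Class I genes had 5 R848 and 5 untreated peaks in 132.2 kb of window, 3.78 per 100 kb in each (95% exact Poisson interval 1.23 to 8.83). Class IIa genes had 12 and 9 peaks in 413.2 kb, or 2.90 per 100 kb (1.5 to 5.07) in the R848 list and 2.18 (0.996 to 4.13) in the untreated list. The sirtuins had 4 and 3 in 108.0 kb, or 3.71 (1.01 to 9.49) and 2.78 (0.573 to 8.12), and Hdac11 had 3 and 1 in 38023 bp, or 7.89 (1.63 to 23.1) and 2.63 (0.0666 to 14.7). Hdac4 alone supplied 6 of the 12 R848 and 5 of the 9 untreated class IIa peaks, across 286924 bp, and of 473 genes with windows of similar length 29.2% had as many R848 peaks and 47.6% as many untreated ones. The median density over the 10 members was 4.19 (R848) and 2.63 (untreated) per 100 kb, and over all protein-coding genes 1.47 and 1.96. Pooled over windows, as for the classes, the members had 3.47 (2.22 to 5.17) in the R848 list and 2.60 (1.54 to 4.11) in the untreated list. All protein-coding genes had 1.93 (R848), below the R848 interval of the members, and 2.22 (untreated), inside their untreated interval. As the members were chosen with earlier results known, these intervals are no test against all genes. The R848 list is the shorter of the lists but held more peaks in these windows, 24 against 18, with the excess at Hdac4, Hdac7, Hdac11 and Sirt2 and all but 2 of its unshared peaks above a q of 0.05. The pooled intervals of the lists overlap, and windows of 50 kb held 38 R848 and 40 untreated peaks. Classes I, IIa and III did not differ in their number of members with a start peak, which was 2 of 3 in each list. The members differed within each class: Hdac1 and Hdac2 had one but not Hdac3, Hdac4 and Hdac5 but not Hdac7, and Sirt1 and Sirt2 but not Sirt6.

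The 8 deacetylase genes outside the list had no start peak. These are Hdac6, Hdac8, Hdac9, Hdac10 and the mitochondrial or nucleolar sirtuin genes Sirt3, Sirt4, Sirt5 and Sirt7. In either list 0 of 8 had a peak within 1000 bp of a start (95% exact binomial interval up to 36.9%). The shares of all protein-coding genes, 23.8% (R848) and 28.1% (untreated), lie inside that interval, so 0 of 8 does not set these genes apart. Of the genes described here, 7 of 10 (R848) and 6 of 10 (untreated) had such a peak. Promoters were given for 7 of the 8 other genes, with 0 to 24 CpGs. As the 10 genes were picked with results known, this split describes the choice as much as the family.

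Partners of the deacetylases had start peaks often. Of 53 genes in 7 lists, the 8 other deacetylases included, 30 had a start peak in the R848 list and 32 in the untreated list, and 25 in both, where the shares of all protein-coding genes were 23.8%, 28.1% and 17.3% as given above. Where no start was given, as for Sap130, Brms1, Arid4a, Chd3, Mta3, Mbd2, Ywhab and Naprt, a peak at either gene end counted. The peaks of the lists at Brms1 did not overlap. The SIN3 complex, the scaffold for HDAC1 and HDAC2, had 10 of 11 in each list. Sap18 (fold 7.36 in the R848 list and 6.49 in the untreated list), Arid4b (6.36 and 6.18) and Ing1, a reader of methylated histone H3 (6.19 and 4.04), had peaks in both, Suds3 in the R848 list only (3.32) and Sap30 in the untreated list only (3.20). NuRD, which joins HDAC1 and HDAC2 to a chromatin remodeller, had 7 of 11 (R848) and 8 of 11 (untreated). Gatad2a had the highest fold of all the partners (11.5 and 10.4), followed in NuRD by Mbd3 (5.73 and 4.77) and Rbbp4, a histone-binding subunit (3.59 and 4.81). The R848 list alone had peaks at Mta2 (3.59) and Mta1 (2.33), and the untreated list alone at Chd3 (3.20) and Chd4 (2.46), which encode the remodelling ATPases.

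The CoREST list, around the demethylase gene Kdm1a, had 3 of 6 in each list: Rcor1 (4.97 and 5.04) and Hmg20b (3.68 and 4.08) in both, Kdm1a itself in the R848 list only (2.76) and Rcor2 in the untreated list only (2.52). The NCoR list, partners of HDAC3, had 2 of 4 in each, with weak peaks at Ncor1 (2.76 and 3.43) and Gps2 (3.17 and 2.29). Partners and the exporter of class IIa enzymes had 5 of 8 in each. Xpo1, the nuclear export receptor (5.32 and 6.41), Mef2d (4.17 and 4.40) and the 14-3-3 gene Ywhae (2.76 and 3.66) had peaks in both, Mef2c in the R848 list only (3.59) and Mef2a in the untreated list only (4.35). Of 5 genes of NAD synthesis, which supplies the sirtuins, 3 (R848) and 4 (untreated) had a peak: Nampt, the rate-limiting enzyme of NAD salvage (8.59 and 7.55), Nmrk1 (3.87 and 4.81) and Nadsyn1 (3.87 and 3.43) in both and Naprt in the untreated list only (2.75). Of the 12 partner genes with a start peak in 1 list only, 5 were in the R848 list and 7 in the untreated list. These are counts out of 53 genes, where 6.47% (R848 only) and 10.9% (untreated only) of all protein-coding genes had such a peak.

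**Figure D4:**
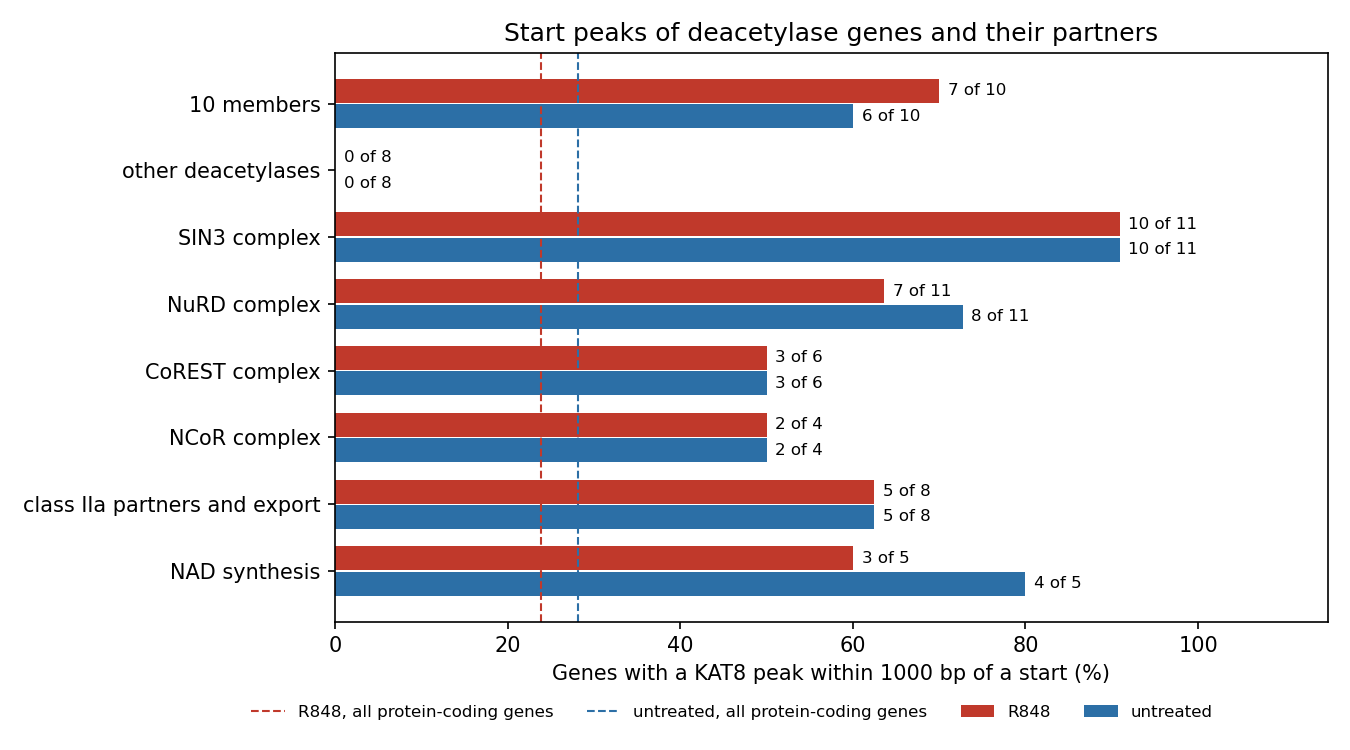
Share of genes (in %, bars from 0) with a KAT8 peak within 1000 bp of a start, for the 10 genes described, the 8 other deacetylases and 6 lists of partner genes, with R848 (red) above untreated (blue) and counts beside the bars. Gene ends were used where no start was given. Dashed lines are the shares over all protein-coding genes, 23.8% (R848) and 28.1% (untreated). All lists but the other deacetylases, at 0 of 8, lie to the right of both lines.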

How the data were processed

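KAT8 CUT&Tag peaks of 2 libraries were analysed, 1 R848 and 1 untreated, grouped by the treatment label. MACS2 2.2.7.1, Bowtie 0.12.8, the build mm10 and DiffBind appear in the submitters' processing notes, with no role or order; the sources used here do not state caller settings or a control library. The deposited lists, 1 file per sample, hold a score (10 times −log10 p), a fold over background (a ratio), −log10 p, −log10 q and a summit for each peak, as the authors' caller gave them. Peak names begin with MOF0h in the untreated file and MOF0h2h in the R848 file, so a part of the untreated reads in the R848 calls cannot be told from the files.

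Pileups were solved from the deposited fold, read as the ratio of pileup to background after adding 1 to each, and from the p-value as a Poisson tail, and were whole within 0.05 for all 44662 R848 and 51885 untreated peaks solved; 110 and 116 of very high −log10 p were not. Read totals were not used here. Sharing meant an overlap of at least 1 bp. Intervals are 95% exact (Poisson or Clopper-Pearson). Genes, starts and promoters came from RefSeq tables of GRCm38.p6; a peak belonged to a start where any base lay within 1000 bp, or to either gene end where no start was given. Strand is not in the gene table and exons were not used. Python 3.11.15, numpy 2.4.6, pandas 2.3.3 and scipy 1.17.1 were used, and the overlap and pileup code was tested on simulated data and against bedtools 2.31.1.

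All 10 members are named. From each partner list up to 3 genes with a start peak in both lists and up to 2 per direction in 1 list only are named, by falling fold; neighbours sharing a member's peak are named as well. A gene of the partner lists and another of the marker lists are not reported here and were left out of the counts. The members and lists were chosen with earlier results of these data known. Alternatives were a q of 0.05, −log10 q of at least 5, lists of equal length, gene windows of 1 or 50 kb, start windows of 500 or 3000 bp, an overlap of 50% on either side, summit distances up to 250 bp and, added after the data were seen, both gene ends for every gene.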

Additional observations from a re-analysis of the deposited data

How the results depend on the processing

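Of 122 values recomputed, 82 stayed within 1.5 times the reported count, or inside the Poisson interval of the reported density, and 40 moved. Lists of equal length, gene windows of 1 kb and start windows of 500 or 3000 bp moved none of the values to which they apply. The same held for summits within 250 bp and gene ends for every gene. Gene ends alone did lose Hdac4 (5 members in both lists), and 3000 bp added Hdac3 (7) through the peak at the end of Diaph1. With q up to 0.05 there were 7 R848 and 4 untreated member peaks, 3 shared in each, and 4 members with a window peak in the untreated list. Start peaks were then at 4 (R848) and 2 (untreated) members, with 2 in both lists, 2 in the R848 list only (Hdac2 and Sirt2) and 6 in neither. Densities per 100 kb were 0.726 (class IIa, R848), 0.242 (class IIa, untreated), 0.926 (sirtuins, R848) and 0 for Hdac11 in both lists. With −log10 q of at least 5, 1 R848 and 2 untreated peaks remained, at 1 and 2 members, 1 of them shared in each list. Start peaks were then at 1 member in each list and in both (Hdac4), 0 in the R848 list only and 9 in neither, and at 11 (R848) and 13 (untreated) partner genes. Densities were 0 (R848) and 0.757 (untreated) for class I, 0.242 in each list for class IIa, and 0 in both for the sirtuins and Hdac11. Windows of 50 kb gave 38 R848 and 40 untreated peaks, and an overlap of 50% of each peak left 5 shared peaks in each list. These counts follow from fewer peaks, more sequence or a stricter overlap. No paired analysis was possible because each group had 1 library, and for the same reason no replicate could be left out. Most member peaks lie within a few fragments of the calling threshold, which limits any statement on presence in 1 list.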

Other observations

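Of the 8 deacetylase genes without a start peak, 6 had a window peak in the R848 list and 5 in the untreated list, near the shares of all protein-coding genes (58.7% and 64.0%), with 17 and 18 peaks in all, of which 5 and 6 were shared. Hdac6, an X-linked gene for a tubulin deacetylase, had none in either list. Sirt7, which encodes a nucleolar sirtuin, had peaks with a fold of up to 4.81 (−log10 q 6.81) in the R848 list and 5.15 (9.28) in the untreated list, but the nearest summits were 4969 bp and 4783 bp from its start. Sirt4, a gene for a mitochondrial sirtuin, had a shared peak of fold 3.85 (R848) and 5.72 (untreated), 5552 bp and 5769 bp from its start. Hdac9, the fourth class IIa gene, spans 869516 bp and had 10 peaks in each list, 3 of them shared, with the nearest summit 54853 bp (R848) and 66536 bp (untreated) from a start. These are values only and no explanation was tested.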
